A study of Mus musculus with 4 samples.

Results

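The mitochondrial ribosomal protein genes of mouse epidermis were followed in RNA sequencing of keratinocytes from newborn pups. Members were all symbols in the deposited table made of Mrpl or Mrps, a number and at most 1 letter, without pseudogenes. This rule gave 77 of 45803 symbols, 48 named for the large subunit (Mrpl) and 29 for the small subunit (Mrps). The set was put forward with the difference between genotypes already known, so that difference is described here and no test of it is read as support. The study compared 2 cKO libraries, genotype K14Cre,Mettl14F/F, with 2 control libraries, genotype K14Cre,Mettl14F/+, all from epidermal keratinocytes at postnatal day 0. Every animal thus carried the K14Cre transgene and at least 1 floxed Mettl14 allele, and the controls kept 1 unfloxed allele. K14Cre acts in keratin 14 expressing cells, mainly basal keratinocytes, and Mettl14 encodes a subunit of the enzyme that writes N6-methyladenosine on RNA. Nothing in the labels says that libraries of a group came from separate animals, so the spread between them may be technical.

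Mitochondria have their own ribosome, which translates the few mRNAs encoded by mitochondrial DNA into subunits of the respiratory chain and of ATP synthase. Its ribosomal RNAs come from mitochondrial DNA, while all its proteins are encoded in the nucleus, made in the cytosol and imported. The small subunit reads the mRNA and the large subunit forms the peptide bond. Some of the proteins have counterparts in bacterial ribosomes and others are particular to mitochondria. N6-methyladenosine on nuclear-encoded mRNA is best known for promoting decay of the mRNA, and it is mostly kept out of the sequence around exon junctions.

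Values are FPKM, fragment counts scaled to transcript length and to library size, summed over the transcripts of each gene. The implied depth was between 16884000 and 25693700 reads or fragments per library. Mettl14 itself was at 7.00 (number 1) and 6.40 FPKM (number 2) among controls, against 5.89 and 3.79 in cKO, so the cKO values were lower and did not reach 0. The libraries differ by replicate number at least as much as by genotype, so differences between the cKO and the control library of the same number are given throughout. The keratinocyte marker list (10 genes, led by Krt10, Krt14, Perp and Krt5) summed to between 13222 and 22194 FPKM, of which Krt10 made up the largest share.

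All 77 members reached at least 1 FPKM in at least 2 libraries, and none was listed at 0. Mean levels over the 4 libraries ran from 5.18 FPKM for Mrpl47 to 79.4 for Mrpl20, with a median of 27.8. In the library with the fewest reads for it, a member rested on at least 108 recovered reads (Mrps6) and in the median member on 397. The members together summed to 1647 and 2203 FPKM in controls 1 and 2 and to 2190 and 3111 in cKO 1 and 2. The sum was thus higher in cKO than in the control of the same number in both comparisons, although control 2 and cKO 1 were almost equal.

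The median member was higher in cKO by 0.36 on the log2(FPKM + 1) scale, against -0.03 over the 13817 genes tested. The median was 0.36 within number 1 and 0.38 within number 2, against -0.03 and -0.02 over all genes. Of the 77 members, 62 were higher in cKO within both numbers (31.8% of all genes were) and 5 were lower within both (37.6% of all genes). Both cKO libraries lay above both control libraries for 37 members (16.2% of all genes) and below both for 2 (16.6% of all genes). A level at least 2-fold higher within both numbers was seen for 5 members (0.789% of all genes), and at least 2-fold lower for 0 (0.608% of all genes). No member had a limma adjusted p under 0.05, nor did any gene tested (0% of all genes). At an unadjusted p under 0.05, limma gave 14 members higher (3.29% of all genes) and 0 lower (1.68% of all genes). Nothing is read from these counts, because the set was chosen with this contrast known. The median kept its sign when a library was left out, but its size followed the replicate number. It was 0.16 with control 1 left out and 0.59 with control 2 left out. It was 0.55 with cKO 1 left out and 0.12 with cKO 2 left out.

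**Figure D1:**
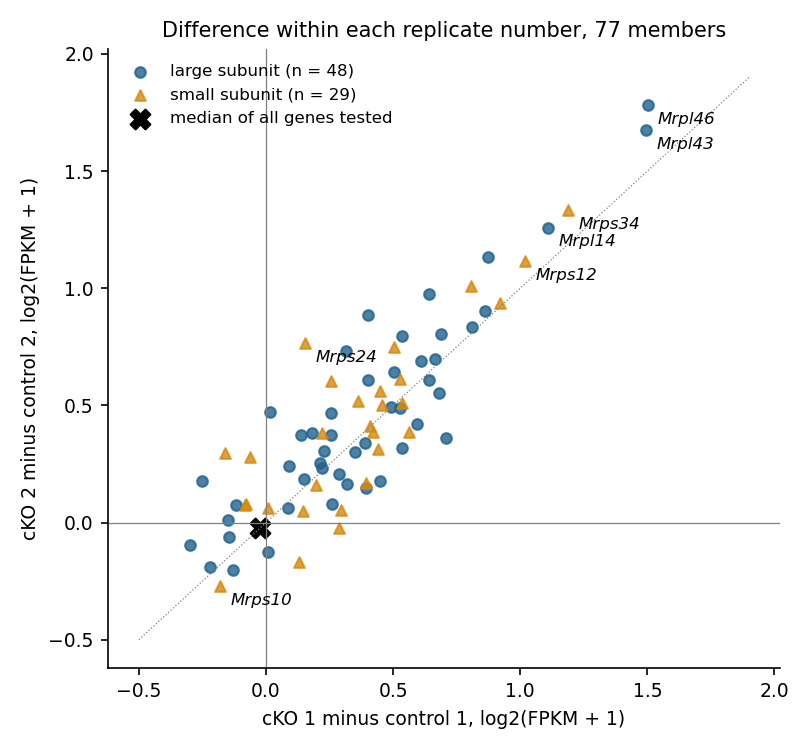
Each point is 1 of 77 members, placed by the log2(FPKM + 1) difference between cKO 1 and control 1 (x) and between cKO 2 and control 2 (y), with circles for the large and triangles for the small subunit. Most points lie in the upper right, where 62 members are higher within both numbers, and the cross marks the median of all genes tested, near 0 on both axes.

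Among large subunit genes, Mrpl46, Mrpl43, Mrpl14, Mrpl16, Mrpl53 and Mrpl57 stood furthest above control within both numbers. Mrpl46 (ENSMUSG00000030612, GRCm38 chromosome 7, 78775236 to 78783531, minus strand), a mitochondria-specific protein, was at 13.97 (number 1) and 16.5 FPKM (number 2) among controls, against 41.4 and 59.2 in cKO. Both cKO values were above both control values, 2.96 times control within number 1 and 3.59 times within number 2. Its log2 difference was 1.64 ± 0.25 (SE, n = 2 libraries a group). Mrpl43 (ENSMUSG00000025208, chromosome 19, 45004829 to 45006442, minus strand), also mitochondria-specific, was at 16.4 and 25.4 FPKM among controls, against 47.9 and 83.2 in cKO. Its groups did not overlap either, at ratios of 2.93 and 3.28 and a log2 difference of 1.58 ± 0.35. Mrpl14 (ENSMUSG00000023939, chromosome 17, 45686322 to 45698495, plus strand), which has a bacterial counterpart and lies at the interface of the subunits, was at 17.5 and 21.4 FPKM among controls, against 38.9 and 52.7 in cKO. Its ratios were 2.23 and 2.46 and its log2 difference 1.18 ± 0.24.

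The promoter windows of these genes are shown because these genes stood furthest above control and because Mrpl46 starts head to head with another member, Mrps11. Each window runs from 250 bases before to 50 after the RefSeq start (GRCm38.p6), 5′ to 3′ on the gene's strand, and capitals mark matches to the 3 motifs named further on. The windows are chr7:78783040-78783339 (minus) for Mrpl46, chr7:78782881-78783180 (plus) for Mrps11, chr19:45006393-45006692 (minus) for Mrpl43 and chr17:45686099-45686398 (plus) for Mrpl14.
Mrpl46: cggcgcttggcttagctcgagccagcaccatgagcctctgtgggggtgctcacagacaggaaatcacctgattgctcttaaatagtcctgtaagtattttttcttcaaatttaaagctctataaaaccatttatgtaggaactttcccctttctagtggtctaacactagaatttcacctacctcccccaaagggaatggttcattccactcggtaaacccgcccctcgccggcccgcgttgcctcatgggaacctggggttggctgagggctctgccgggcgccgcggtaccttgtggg
Mrps11: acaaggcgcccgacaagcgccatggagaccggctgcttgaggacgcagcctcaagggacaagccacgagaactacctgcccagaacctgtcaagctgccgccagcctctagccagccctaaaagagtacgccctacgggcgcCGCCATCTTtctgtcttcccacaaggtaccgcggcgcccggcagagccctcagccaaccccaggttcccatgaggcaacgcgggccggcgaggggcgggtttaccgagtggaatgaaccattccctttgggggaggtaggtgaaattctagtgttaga
Mrpl43: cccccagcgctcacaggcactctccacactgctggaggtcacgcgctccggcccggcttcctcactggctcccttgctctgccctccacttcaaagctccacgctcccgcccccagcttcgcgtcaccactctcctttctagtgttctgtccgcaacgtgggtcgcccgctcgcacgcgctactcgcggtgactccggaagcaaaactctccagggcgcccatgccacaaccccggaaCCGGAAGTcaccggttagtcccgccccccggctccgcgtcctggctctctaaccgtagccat
Mrpl14: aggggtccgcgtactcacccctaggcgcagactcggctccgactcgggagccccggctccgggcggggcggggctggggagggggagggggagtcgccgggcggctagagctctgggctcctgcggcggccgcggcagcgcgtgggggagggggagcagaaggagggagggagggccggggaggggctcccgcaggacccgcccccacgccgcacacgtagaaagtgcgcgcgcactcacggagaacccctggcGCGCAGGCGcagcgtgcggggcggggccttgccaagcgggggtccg
The windows of Mrpl46 and Mrps11 share 141 bases, read on opposite strands. The capitals in Mrps11 are the YY1 motif on the reverse strand, those in Mrpl43 the ETS motif and those in Mrpl14 the NRF1 motif, while Mrpl46 has no match.

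Mrpl16, whose bacterial counterpart lies near the peptidyl transferase centre, was at 14.5 and 17.0 FPKM among controls, against 27.3 and 38.5 in cKO. Mrpl53 was at 19.1 and 26.3 FPKM among controls, against 35.6 and 50.05 in cKO. Mrpl57 was at 8.60 and 13.1 FPKM among controls, against 15.8 and 24.1 in cKO. In each of these 3 genes both cKO libraries exceeded both controls, with log2 differences of 1.00 ± 0.25, 0.88 ± 0.27 and 0.82 ± 0.30 in that order.

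Among small subunit genes, Mrps34, Mrps12, Mrps2 and Mrps7 stood furthest above control. Mrps34 (ENSMUSG00000038880, chromosome 17, 24895116 to 24897502, plus strand), a mitochondria-specific protein, was at 18.1 and 26.4 FPKM among controls, against 42.4 and 68.0 in cKO, a log2 difference of 1.26 ± 0.32. Mrps12 (ENSMUSG00000045948, chromosome 7, 28739641 to 28741820, minus strand), the counterpart of a bacterial protein of the decoding centre, was at 14.6 and 29.0 FPKM among controls, against 30.5 and 64.1 in cKO. The groups of Mrps12 barely separated, since control 2 and cKO 1 differed little, and its log2 difference of 1.07 ± 0.46 had a wide error. Within each number, however, cKO was at 2.10 and 2.21 times control. Mrps2 was at 12.2 and 15.8 FPKM among controls, against 24.1 and 31.1 in cKO, at 0.93 ± 0.24. Mrps7 was at 15.3 and 23.0 FPKM among controls, against 27.5 and 47.4 in cKO, at 0.91 ± 0.34. Both genes have bacterial counterparts, and in both the groups did not overlap.

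Only 5 members were lower in cKO within both numbers, and all by small amounts. Mrpl24 was at 42.9 and 43.7 FPKM among controls, against 36.6 and 38.1 in cKO, at -0.21 ± 0.20 on the log2 scale. Mrps10 was at 19.2 and 21.2 FPKM among controls, against 16.8 and 17.4 in cKO, at -0.23 ± 0.20. In these genes, which both have bacterial counterparts, both cKO libraries were below both controls, yet each difference was about the size of its error. Mrpl1 (-0.17 ± 0.23), Mrpl23 (-0.20 ± 0.29) and Mrpl48 (-0.10 ± 0.35) had overlapping groups and differences smaller than their errors.

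**Figure D2:**
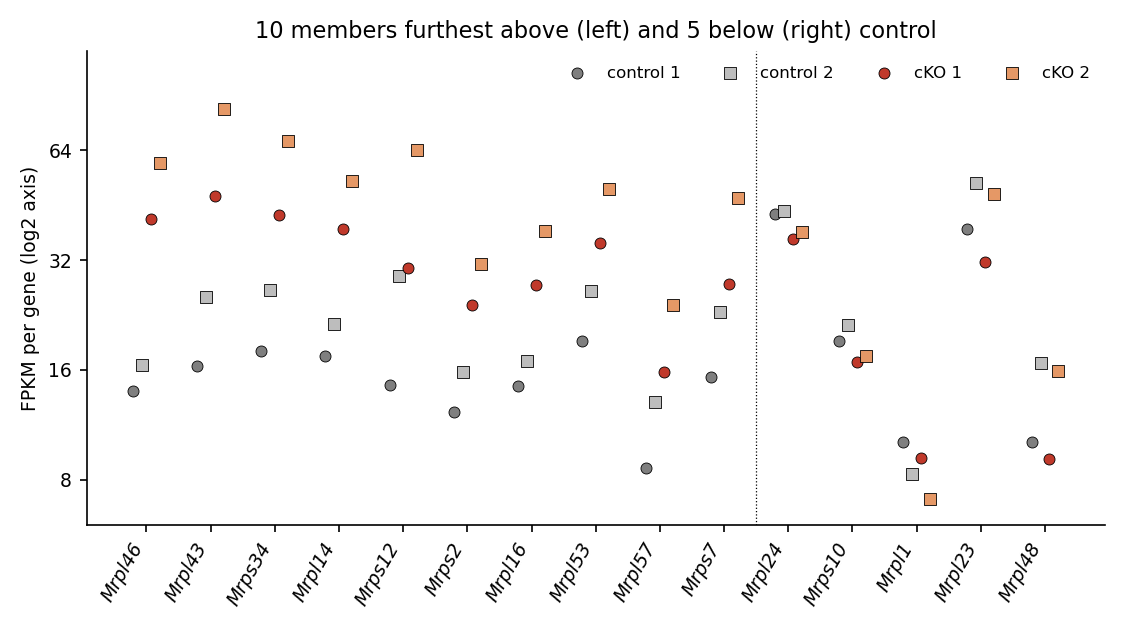
FPKM (log2 axis) of the 10 members furthest above control within both replicate numbers and of the 5 members below control within both, with 1 point per library; circles are libraries numbered 1 and squares those numbered 2, grey for control and red or orange for cKO. In the 10 genes on the left both cKO points lie above both control points, while Mrpl1, Mrpl23 and Mrpl48 on the right overlap.

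The most abundant members were Mrpl20, Mrpl30, Mrps21, Mrpl54, Mrpl52 and Mrpl51, and they did not share 1 pattern. Mrpl20, which has a bacterial counterpart, was at 45.6 and 71.7 FPKM among controls, against 74.2 and 126 in cKO (0.75 ± 0.36). Mrpl54 was at 45.3 and 56.4 FPKM among controls, against 60.01 and 105 in cKO (0.64 ± 0.32), and Mrpl51 32.6 and 44.1 among controls, against 47.7 and 77.3 in cKO (0.67 ± 0.31). The groups of these 3 genes did not overlap. Mrpl30 was at 63.9 and 83.7 FPKM among controls, against 76.6 and 88.5 in cKO, a log2 difference of 0.17 ± 0.24. Mrps21 was at 53.8 and 72.7 FPKM among controls, against 64.4 and 111 in cKO, at 0.43 ± 0.33, and Mrpl52 45.1 and 71.2 among controls, against 61.9 and 80.7 in cKO, at 0.31 ± 0.30. In Mrpl30, Mrps21 and Mrpl52 the groups overlapped, because control 2 was above cKO 1.

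The 3 genes that share a number, Mrps18a, Mrps18b and Mrps18c, encode relatives of 1 bacterial small subunit protein, of which Mrps18a sits in the large subunit of the mammalian ribosome. Mrps18a was at 23.1 and 26.8 FPKM among controls, against 31.8 and 40.1 in cKO (0.50 ± 0.22). Mrps18b was at 25.5 and 33.3 FPKM among controls, against 34.4 and 43.8 in cKO (0.40 ± 0.24). Mrps18c was at 33.1 and 36.3 FPKM among controls, against 29.5 and 44.8 in cKO (0.07 ± 0.26). Mrps18a and Mrps18b were thus higher in both cKO libraries than in either control, whereas Mrps18c changed sign between the replicate numbers.

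Large and small subunit genes had similar medians. The 48 large subunit genes had a median of 0.34 on the log2 scale (0.37 for both number 1 and number 2) and ranged from -0.21 to 1.64. The 29 small subunit genes had a median of 0.40 (0.36 and 0.39) and ranged from -0.23 to 1.26. Higher values within both numbers were found for 40 large and 22 small subunit genes (31.8% of all genes), and lower ones for 4 and 1 (37.6%). In each library the median log2(FPKM + 1) level of large subunit genes was slightly above that of small subunit genes, by 0.07 and 0.05 in controls 1 and 2 and by 0.18 and 0.03 in cKO 1 and 2. The cKO libraries stood on either side of the controls, and the difference of 0.05 between genotypes gave an exact permutation p of 1 (two-sided, 4 libraries). The smallest p this design allows is 0.333, so no difference could have passed 0.05. The 2 measures also pointed in opposite directions. The library medians moved towards the large subunit in cKO, while the median of gene differences was higher for the small subunit (0.40 against 0.34). Placing Mrps18a and Mrps30 with the large subunit, as in the mammalian structures, left the value at 0.05. In every library Mrps18a lay above and Mrps30 below the medians of both subunits, so moving this pair could not change the value.

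The members also differed between replicate numbers, a comparison outside the genotype contrast. Control 2 was above control 1 for 75 of 77 members (57% of all genes), with a median log2 difference of 0.38 against 0.07 over all genes. cKO 2 was above cKO 1 for 76 members (56.5% of all genes), with a median of 0.48 against 0.08. The cytosolic ribosomal protein genes shifted further, by 0.64 in control (78 of 79 genes higher) and 0.61 in cKO (76 of 79). The nuclear respiratory chain and ATP synthase genes shifted by 0.48 in control (76 of 78) and 0.54 in cKO (75 of 78). The members' shift was as large as the one between genotypes, and it depended on scaling: with equal column sums the median over both genotypes was 0.17 instead of 0.43. The largest shifts between numbers, averaged over both genotypes, were 1.23 for Mrpl12, 1.00 for Mrps12, 0.87 for Mrps6 and 0.70 for Mrpl48. Mrpl12, the stalk protein of the large subunit, which is also known to bind the mitochondrial RNA polymerase, was at 13.2 and 32.6 FPKM among controls, against 19.4 and 46.1 in cKO. Mrps6 was at 7.32 and 14.8 FPKM among controls, against 10.3 and 18.7 in cKO. In both genes the libraries differed more by number than by genotype, and their cKO differences of 0.51 ± 0.55 and 0.38 ± 0.41 were within their errors.

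Of exon number, transcript length and the letters GGACT, exon number went furthest with the size of the genotype difference. The most abundant transcripts of the members had 2 to 11 exons with a median of 5, against a median of 8 over the 12170 protein-coding genes tested. The 23 members with 1 to 3 exons had a median of 0.53 on the log2 scale (0.53 within number 1, 0.64 within number 2), and 23 of 23 were higher in cKO within both numbers. The 27 members with 4 or 5 exons had a median of 0.49 (0.49 and 0.49), with 24 higher within both. The 16 members with 6 or 7 exons had a median of 0.07 (-0.03 and 0.19), with 8 higher within both. The 11 with 8 or more had 0.18 (0.21 and 0.16), with 7 higher within both. The 5 members at least 2-fold higher within both numbers had 3 exons (Mrpl43, Mrps34, Mrpl14 and Mrps12) or 4 (Mrpl46).

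Among other protein-coding genes the medians were lower with each bin of more exons, whereas members with 8 or more exons lay above those with 6 or 7. The other genes' medians were 0.11 at 1 to 3 exons (1844 genes, 47.4% higher within both numbers), 0.07 at 4 or 5 (1862 genes, 42.9%), 0.03 at 6 or 7 (1630 genes, 38.6%) and -0.07 at 8 or more (6757 genes, 26.1%). The rank correlation of exon number with the difference was -0.58 across the 77 members and -0.26 across 12093 other protein-coding genes. Transcript length went with the difference at -0.09 across the members and -0.24 across the others. These are descriptions across genes of the same 4 libraries, and genes are not independent replicates. Between replicate numbers the members had a median shift of 0.43 in control at 1 to 3 exons, 0.44 at 4 or 5, 0.26 at 6 or 7 and 0.33 at 8 or more. In cKO the shifts were 0.59, 0.48, 0.52 and 0.17 in the same order. The other genes shifted by 0.19, 0.15, 0.15 and 0.03 in control and by 0.23, 0.20, 0.18 and 0.05 in cKO.

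**Figure D3:**
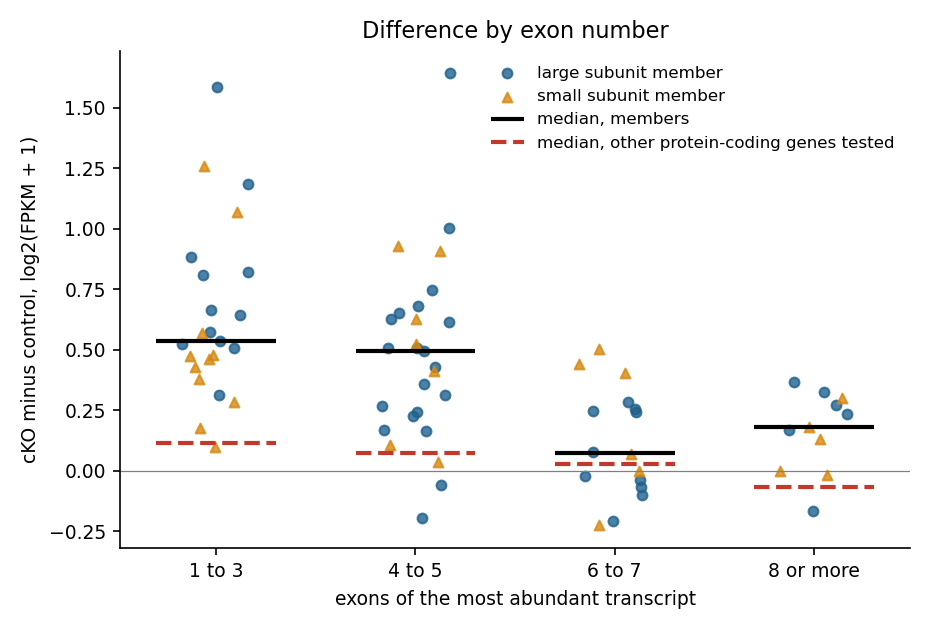
Log2(FPKM + 1) difference between cKO and control for each member (circles large subunit, triangles small subunit), grouped by the exon number of its most abundant transcript; sideways scatter is only for display. Black lines are medians of the members (0.53, 0.49, 0.07 and 0.18 from left to right) and red dashed lines medians of other protein-coding genes (0.11, 0.07, 0.03 and -0.07).

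The letters GGACT, the most common core in which N6-methyladenosine is found, were counted in the most abundant transcript of each gene on the sense strand. The letters alone say nothing of whether a site is methylated. Members held a median of 0.97 per kilobase, against 1.06 over protein-coding genes tested, and 22 of 77 members (28.6%) held none, against 9.65%. Their median length of 1068 bases was shorter than the 2792 bases of protein-coding genes tested. Mrpl46 held 3, Mrpl43 2, Mrps34 3, Mrpl14 1 and Mrps12 0, so the members furthest above control included transcripts with and without the letters. The rank correlation of GGACT per kilobase with the difference was 0.23 across the members and 0.10 across the others.

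Most of the members' signal lay in coding transcripts. The 292 transcripts of the members included 150 annotated as protein coding, which summed to 1396 and 1904 FPKM in controls 1 and 2 and to 1883 and 2748 in cKO 1 and 2. The 70 transcripts annotated as retained introns summed to 123 and 122 FPKM in control and to 147 and 137 in cKO, which was 7.49% and 5.54% of the members' FPKM in control and 6.72% and 4.41% in cKO. These shares were higher in the libraries numbered 1. For Mrps34, the main 3-exon transcript was at 15.5 and 24.2 FPKM among controls, against 40.5 and 65.0 in cKO, while a retained-intron transcript stayed between 1.33 and 1.91. With protein-coding transcripts alone the median difference over members was 0.35.

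Many of these genes start head to head with a neighbour. In the GENCODE annotation 33 members had a protein-coding gene on the opposite strand that starts within 1000 bases, and 28 of these neighbours passed the filter and were no members. The 28 neighbours had a median log2 difference of -0.03, as had all genes tested, while the members paired with them had a median of 0.38. Of the neighbours, 9 were higher and 9 lower within both numbers (31.8% and 37.6% of all genes were). The member had the larger difference in 21 of 28 pairs. Neighbours had a median of 10.5 exons and the paired members 4. The median log2 gap between member and neighbour was 1.13 and 1.38 in controls 1 and 2 and 1.82 and 2.07 in cKO 1 and 2. Both cKO gaps exceeded both control gaps, by 0.69 on average. The exact permutation p was 0.333, the smallest this design allows, and nothing is read from it because the gap rests on the same contrast.

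The pairs of the members furthest above control are given as examples. Mrps34, whose span also overlaps Mapk8ip3, starts 29 bases from Eme2, an endonuclease subunit, which was at 13.6 and 14.2 FPKM among controls, against 10.2 and 10.2 in cKO, opposite to Mrps34. Mrps12 starts 172 bases from Sars2, the mitochondrial seryl-tRNA synthetase, which was at 5.12 and 5.93 FPKM among controls, against 5.05 and 5.48 in cKO, while Mrps12 was above 2-fold higher. Mrpl43 overlaps Twnk, the mitochondrial DNA helicase, by 780 bases, and Twnk was at 7.19 and 9.22 FPKM among controls, against 8.08 and 11.5 in cKO. Mrpl46 overlaps Mrps11 by 413 bases in the GENCODE spans. The RefSeq promoter window of Mrpl46 ends at 78783339, inside its GENCODE span, which ends at 78783531. The 2 annotations thus place its start differently, and the overlap holds for GENCODE only. Mrps11 was at 8.15 and 12.5 FPKM among controls, against 10.8 and 18.4 in cKO, a log2 difference of 0.44 against 1.64 for Mrpl46. Mrpl14 overlaps Tmem63b, which was at 38.5 and 37.2 FPKM among controls, against 39.6 and 40.1 in cKO. In each of these pairs the neighbour differed less than the member, but the pairs were picked for the members' large differences. Across the 28 pairs with a neighbour outside the set, the neighbour had the larger difference in 7, such as Ptcd2 (0.61) beside Mrps27 (0.30). Strand is not stated to have been kept, so reads in the overlaps cannot be assigned to 1 gene of a pair. The 54 members that no protein-coding gene overlaps on the opposite strand had a median of 0.32.

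**Figure D4:**
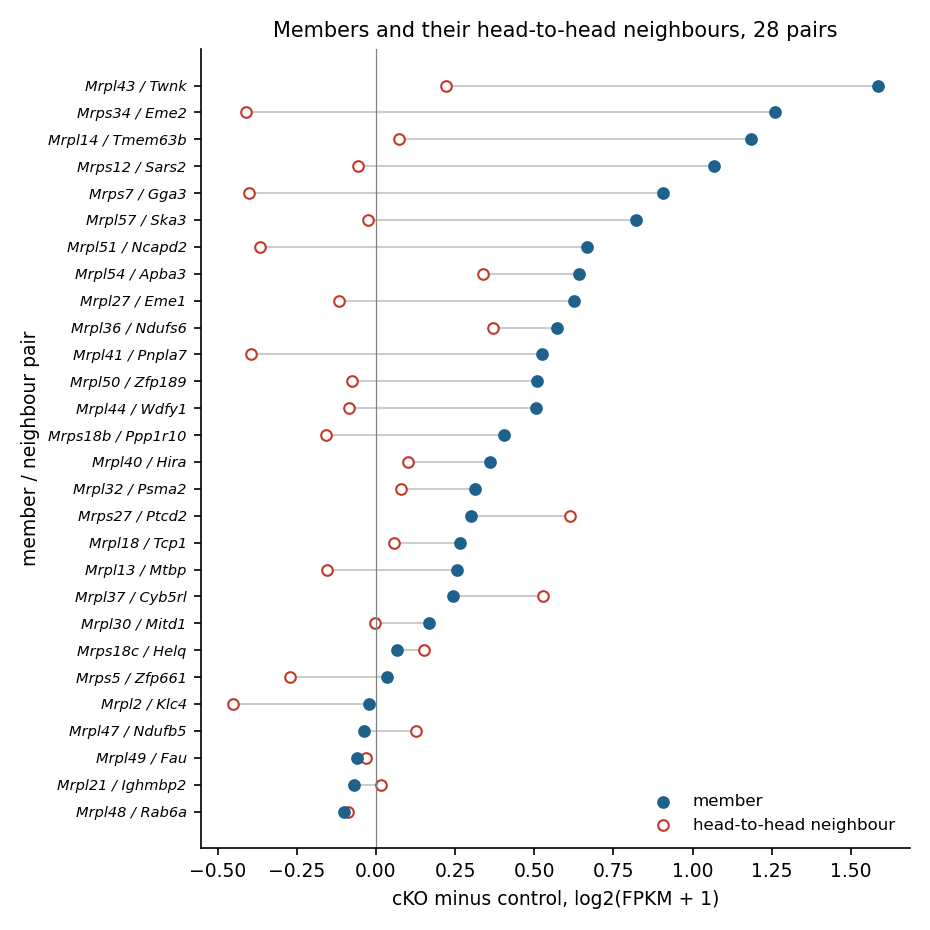
Log2(FPKM + 1) difference between cKO and control for 28 members (filled) and the protein-coding gene that starts head to head with each (open), ordered by the member. The member lies to the right of its neighbour in 21 pairs, and the neighbours centre near 0 (median -0.03).

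Promoter windows were found in RefSeq (GRCm38.p6) for 68 members, and 3 motifs of factors known to act on mitochondrial genes were searched on both strands. The ETS motif CCGGAAGT was in windows of 12 members (17.6%, against 4.31% of the 27025 genes with a window and 9.07% of those tested). The NRF1 motif GCGCANGCG was in windows of 16 members (23.5%, against 7.03% and 15.1%), and the YY1 motif AAGATGGCG in 8 (11.8%, against 1.64% and 3.59%). None of the 3 motifs contains another, and the last 2 were searched in this shorter form after a longer form had been seen. At least 1 motif was found in 34 members and none in 34. The median log2 differences of members with and without a motif lay between 0.28 and 0.42. They were 0.28 with and 0.39 without the ETS motif, 0.42 and 0.31 for NRF1, and 0.37 and 0.36 for YY1. Nrf1 (0.15 ± 0.20), Gabpa (-0.10 ± 0.23) and Yy1 (0.11 ± 0.22), genes of factors of these motifs, had log2 differences within their errors. So had Myc (-0.15 ± 0.26), another abundant regulator gene, for which no motif was searched. Esrra, a regulator named after its values were seen, was at 12.5 and 15.5 FPKM among controls, against 17.9 and 25.9 in cKO (0.59 ± 0.26). Of 8 regulator genes tested, 5 were higher and 0 lower within both numbers (31.8% and 37.6% of all genes were). At an unadjusted limma p under 0.05 there were 0 of them (3.29% of all genes higher, 1.68% lower).

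Proteins of the mitochondrial ribosome whose symbols lie outside the naming rule did not all lie above control. Chchd1 (3 exons), a small subunit protein, was at 19.0 and 37.3 FPKM among controls, against 37.2 and 62.3 in cKO, at 0.83 ± 0.40. Gadd45gip1 (2 exons), of the large subunit, was at 9.18 and 8.60 FPKM among controls, against 13.2 and 22.9 in cKO, and Aurkaip1 (4 exons), of the small subunit, 27.7 and 39.1 among controls, against 34.8 and 56.8 in cKO. These 3 genes were higher in cKO within both numbers (31.8% of all genes were). Dap3 (12 exons) was at 28.1 and 31.2 FPKM among controls, against 23.6 and 32.1 in cKO, and Ptcd3 (24 exons) 20.0 and 19.1 in control and 21.2 and 14.6 in cKO. For both of these small subunit genes the sign differed between the replicate numbers. The mitochondrial ribosomal RNAs, mt-Rnr1 and mt-Rnr2, were listed at 0 in every library.

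Other lists of the mitochondrial translation apparatus had smaller medians, and no gene of them passed limma at an adjusted p under 0.05. Of 23 assembly factors, 14 were higher and 5 lower within both numbers (31.8% and 37.6% of all genes were), with a median of 0.22. Rbfa, a factor of small subunit maturation, was at 11.5 and 20.2 FPKM among controls, against 25.2 and 37.5 in cKO, and Mterf4 14.03 and 14.5 among controls, against 21.04 and 27.7 in cKO. Ngrn (0.54 ± 0.26) and the helicase Dhx30 (0.22 ± 0.20) were the other abundant factors. Of 15 translation factors, 7 were higher and 3 lower within both (again against 31.8% and 37.6% of all genes), with a median of 0.11. The elongation factor genes Tufm, at 37.5 and 44.4 FPKM among controls, against 52.0 and 63.7 in cKO, and Tsfm, at 14.6 and 15.6 against 22.5 and 26.8, did not overlap between groups. Lrpprc and Slirp, which hold mitochondrial mRNAs, had differences of 0.02 ± 0.22 and 0.11 ± 0.22.

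The 20 mitochondrial aminoacyl-tRNA synthetase and related genes, which charge the tRNAs, had a median of 0.09. Of these, 10 were higher and 3 lower within both numbers (31.8% and 37.6% of all genes were). The most abundant were Iars2 (0.01 ± 0.22), Lars2 (0.59 ± 0.80), Rars2 (-0.12 ± 0.24) and Tars2 (0.09 ± 0.19). Of 9 genes of mitochondrial transcription and DNA maintenance, 2 were higher and 5 lower within both, beside the same shares of all genes. Their median was -0.15. Ssbp1 (-0.37 ± 0.24), Polg (-0.01 ± 0.20), Tfam (-0.03 ± 0.25) and Polrmt (-0.23 ± 0.22) were the most abundant, and no difference exceeded 2 standard errors. The 13 genes whose mRNAs the mitochondrial ribosome translates, a list added after the data were seen, had 0 higher and 8 lower within both numbers. They summed to 42049 and 14438 FPKM in control and to 23497 and 9595 in cKO, so the sum was higher in the libraries numbered 1. In mt-Co2, mt-Co3, mt-Atp6 and mt-Atp8 control 1 stood far above all other libraries. For mt-Co3 it was at 9078 FPKM, against 487 in control 2 and 1008 and 419 in cKO. These genes are among the 8 lower within both numbers. Their differences were -3.83 to -3.17 within number 1 but only -0.46 to -0.19 within number 2. The 2 genes at least 2-fold lower in cKO within both numbers, named here after their values were seen, encode subunits of respiratory complex I. mt-Nd3 was at 3300 and 2108 FPKM among controls, against 277 and 559 in cKO, a log2 difference of -2.74 ± 0.53. mt-Nd4l was at 99.4 and 56.4 FPKM among controls, against 7.57 and 13.5 in cKO, at -2.77 ± 0.38. Both had an unadjusted limma p under 0.05, and neither passed after adjustment. The other complex I genes of this list ranged from -0.65 ± 0.66 for mt-Nd4 to -0.01 ± 0.77 for mt-Nd1.

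The members were also set beside the other large families of their kind. The 79 cytosolic ribosomal protein genes had a median log2 difference of 0.11, and the 78 nuclear genes of respiratory chain and ATP synthase subunits, both chosen by symbol, one of 0.20. Higher values in cKO within both numbers were found for 53 cytosolic ribosomal protein genes and 54 nuclear respiratory genes (31.8% of all genes). This direction was thus common to most genes of all 3 families. At least 2-fold higher levels within both numbers were found for 0 genes of those 2 families, against 5 members and 0.789% of all genes. Nothing is read from these counts, because such genes were rare and the members were chosen with this contrast known. The median log2 level of members relative to cytosolic ribosomal protein genes was -4.71 and -4.93 in controls 1 and 2 and -4.29 and -4.48 in cKO 1 and 2. Relative to the nuclear respiratory genes it was -1.69 and -1.65 in control and -1.38 and -1.35 in cKO. In both cases the cKO libraries lay above the controls, by 0.43 and 0.31. The exact permutation p was 0.333 for each (0.444 adjusted over 4 comparisons), the smallest this design allows. Nothing is read from it, because the set was chosen with this contrast known.

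Cell type markers also differed between the libraries. Of the 10 keratinocyte markers, 2 were higher and 4 lower in cKO within both numbers (31.8% and 37.6% of all genes were). The 4 lower ones are markers of basal keratinocytes, with log2 differences of -0.65 ± 0.50 for Krt5, -0.41 ± 0.55 for Krt14, -0.73 ± 0.36 for Krt15 and -0.44 ± 0.22 for Trp63. Sfn (0.89 ± 0.38) and Perp (0.30 ± 0.49) were the 2 higher ones. All 8 leukocyte markers (led by Cd74, Tyrobp, Cd3g and Csf1r) were lower in cKO within both numbers, with sums of 365 and 451 FPKM among controls, against 210 and 328 in cKO. The 6 fibroblast markers (led by Dcn, Col3a1, Col1a2 and Col1a1) summed to 116 and 114 FPKM among controls, against 84.6 and 91.96 in cKO. Of these 6 genes, 1 was higher and 3 were lower within both numbers, and 2 changed sign. Dcn alone was at 55.7 and 68.2 FPKM among controls, against 34.0 and 40.3 in cKO. The 5 melanocyte markers (led by Dct, Pmel, Tyr and Mlana) summed to 506 and 436 among controls, against 389 and 410 in cKO. Among them 0 were higher and 4 lower within both numbers. The 4 endothelial markers summed to at most 1.72 FPKM and the 4 skeletal muscle markers to at most 2.28. Whether these differences in markers have a part in the members' difference was not tested, and in bulk RNA more cells of a type and more RNA per cell cannot be told apart.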

How the data were processed

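RNA was measured in 2 control and 2 cKO libraries of epidermal keratinocytes. Per the submitters' processing notes, fastp, HISAT2, HTSeq and the build GRCm38 were used. How transcript values were made is not given in the sources used here. For 110295 transcripts the authors deposited 2-decimal values, taken as FPKM because value times GENCODE M21 transcript length, divided by 1000, sums to between 1015550 and 1021998 per library. The columns named WT were matched to the control libraries by group and replicate number. Values were summed per symbol, after symbols turned into dates were restored in 162 transcripts by transcript ID. Low values of single-transcript genes were whole reads in at least 94.5% of cases (tolerance 0.2 reads), which gave the implied depths. Promoter windows came from RefSeq GRCm38.p6 (68 of 77 members matched).

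The filter kept genes that reached 1 FPKM in 2 or more libraries. The log2(FPKM + 1) scale shrinks differences of low genes. limma's moderated test with a trend was used, with genotype as the only term and Benjamini-Hochberg adjustment at 0.05 over all 13817 genes. Standard errors are limma's. The procedure was tested on simulated data. Members and lists were chosen with earlier results of these data known. The text names the 6 most abundant members, the 10 furthest above and up to 6 below control within both numbers, the 4 with the largest shift between numbers, the Mrps18 genes, the other ribosomal proteins and RNAs, the 4 most abundant genes of each other list and the neighbours of the first 3. Other pairs and members were named after their values were seen. Alternatives were a pseudocount of 0.1, no filter or 5 FPKM, median-ratio and column-sum scaling, protein-coding or single transcripts, a replicate block, limma-voom on recovered reads and leaving out each library. 4 list genes stood under older symbols and were matched by transcript ID. R 4.3.3, limma 3.58.1, Python 3.11.15, pandas 2.3.3, numpy 2.4.6, scipy 1.17.1 and matplotlib 3.10.9 were used.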

Additional observations from a re-analysis of the deposited data

How the results depend on the processing

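Of 13817 genes 0 passed limma, 686 had an unadjusted p under 0.05, and limma-voom on recovered reads also called 0. With the replicate number as a block 900 of 13817 genes passed, 626 higher and 274 lower in cKO. Of the 77 members 29 passed, all higher in cKO. Nothing is read from this count either, because the set was chosen with this contrast known. The deviations of same-numbered libraries from their group means correlated at 0.72 across genes, but the labels give only a number and there are 2 pairs, so this is a hint and not a pairing. Leaving out 1 library gave between 9 and 71 genes and called 0 to 5 members, in fits where the lone library of a group is assumed to vary like the others. The members' median then lay between 0.12 and 0.59, and under the scaling, filter, transcript and voom settings it stayed between 0.31 and 0.40. The shift between numbers lay between 0.38 and 0.48 without a library and was 0.17 with equal column sums. The large minus small subunit value turned to -0.15 with limma-voom and to -0.021 without cKO replicate 1 (range -0.021 to 0.12 without a library), and was 0.15 with protein-coding transcripts and 0.17 with the most abundant transcript only; the cause was not tested. Mrpl48 turned to 0.068 with the most abundant transcript only. Some members with small differences changed sign when 1 library was left out, with ranges of -0.024 to 0.36 for Mrpl30, -0.0099 to 0.64 for Mrpl52, -0.11 to 1.13 for Mrpl12, -0.088 to 0.84 for Mrps6, -0.23 to 0.36 for Mrps18c, -0.50 to 0.11 for Mrpl23 and -0.47 to 0.27 for Mrpl48. The first 4 turned negative without control replicate 1, Mrpl12, Mrps6 and Mrps18c without cKO replicate 2, and Mrpl23 and Mrpl48 turned positive without control replicate 2 or cKO replicate 1. Other members kept their sign but moved by over 1.5 times, lowest (for Mrpl1 nearest 0) without control replicate 1 or cKO replicate 2. Their ranges were 0.04 to 0.82 for Mrps21, 0.24 to 1.04 for Mrpl54, 0.32 to 1.01 for Mrpl51, 0.37 to 1.13 for Mrpl20, 0.54 to 1.59 for Mrps12, 0.53 to 1.29 for Mrps7, 0.53 to 1.11 for Mrpl57, 0.22 to 0.59 for Mrps18b and -0.33 to -0.00044 for Mrpl1. Further ranges of this kind were 1.19 to 1.98 for Mrpl43, 0.93 to 1.59 for Mrps34 and 0.76 to 1.24 for Mrpl16. Those of Mrpl53, Mrps18a and Mrps10 were 0.64 to 1.12, 0.34 to 0.67 and -0.29 to -0.16 in that order. The 10 members furthest above control kept their sign in every setting run. In each of them both cKO libraries exceeded both controls, so leaving out a library could not change the sign. Nothing is read from this, because they were picked for their large differences. With 2 libraries a group, small differences are not detectable at this replication. Large ones did not pass either with genotype as the only term, such as Mrpl46 at 1.64 ± 0.25 (limma adjusted p 0.959).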
